A study of Mus musculus with 6 samples.

Results

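The Ifi200 genes of mouse chromosome 1 and their neighbour Aim2 were examined in CD8-negative dendritic cells (CD8- dendritic cells) sorted from spleen, after pretreatment with CpG and without it. The 10 genes Ifi203, Ifi204, Ifi205, Ifi207, Ifi208, Ifi209, Ifi211, Ifi213, Mndal and Aim2 were taken by symbol and Entrez ID from a table of read counts for 27179 genes, and all 10 were among the 11602 genes with enough counts to be tested. The mice were of the C57BL/6 strain, and of the 6 RNA-seq libraries 3 came from CpG-pretreated and 3 from untreated animals. Each group carries the sample numbers 2, 3 and 4. CpG stands for DNA oligonucleotides with unmethylated CG steps, which Toll-like receptor 9 recognises. The CpG sequence, dose, route and interval, the age of the mice, and whether a sample was 1 mouse or a pool were not given in the sources used here, so the p-values here cover the spread among the 6 libraries, which may be technical. The series title speaks of dendritic cells that are paralysed after a systemic inflammatory syndrome, and the comparison asks how such cells differ from cells of untreated mice.

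Library totals lay between 7855500 and 8228140 counts, so that 1 count was worth 0.123 to 0.127 CPM (counts scaled to the TMM-normalized library total). No pair of libraries within a group agreed within sampling noise (chi-square per degree of freedom of 3.30 to 20.9), and all 6 were used as separate samples. Transcripts listed as markers of conventional dendritic cells were present, with Cd74 at 21600 ± 2060 CPM in CpG-pretreated and 22900 ± 2220 CPM in untreated cells (SD, n = 3 each). Itgax was at 1970 ± 140 CPM in CpG-pretreated and 2200 ± 108 CPM in untreated cells, and Flt3 at 578 ± 71.3 and 563 ± 36.2 CPM. Of the 10 markers of this list 1 fell (0.500% of all genes), and 1 was lower with the sample number as a block (3.78% of all genes). In both fits this was Esam, a surface molecule of a splenic cDC2 subset. It had 50.8 ± 3.39 CPM in CpG-pretreated and 85.5 ± 13.3 CPM in untreated cells (-0.75, edgeR adjusted p = 0.0444). Irf4 also had groups that did not overlap, at 142 ± 27.8 and 181 ± 7.98 CPM (-0.35, adjusted p = 0.338). Markers of erythroid cells and red pulp macrophages moved with the groups. The tested markers of plasmacytoid dendritic cells (5), B cells (4), T and NK cells (1), and neutrophils and monocytes (6) gave 0 edgeR calls. With the block 0, 1, 1 and 1 of them were called (8.52% of all genes). The T and NK cell call rests on Cd4 alone, the only gene of that list with enough counts to be tested. Cd4 had 336 ± 92.9 CPM in CpG-pretreated and 478 ± 12.9 CPM in untreated cells (-0.51, edgeR adjusted p = 0.251, and 0.0215 with the block). Which cells its transcripts came from was not tested. Of 8 tested erythroid markers 4 rose (0.474% of all genes) and 5 were higher with the block (4.73% of all genes). DESeq2 called 7 (3.67% of all genes) and limma-voom 0 (0.353%), and all 8 had an unadjusted edgeR p under 0.05 (12.8%). Their median log2 fold change was 4.06. The summed level of the list was 1063, 1004 and 219.5 CPM in CpG-pretreated samples 2, 3 and 4. In untreated libraries 2, 3 and 4 it was 22.4, 94.9 and 25.1 CPM (Hba-a1, a near-identical globin copy, was listed at 0). Of 10 tested red pulp macrophage markers 3 fell (0.500% of all genes), and 8 were lower with the sample number as a block (3.78% of all genes). DESeq2 called 6 of them (3.67%). The sums were 332 to 451 CPM in CpG-pretreated and 476 to 605 CPM in untreated libraries, and none of the markers was at 0. Adgre1 made up most of these sums, at 302 ± 48.9 CPM in CpG-pretreated and 352 ± 21.2 CPM in untreated cells. Its groups overlapped (-0.22, edgeR adjusted p = 0.559). In sorted bulk samples a change in the share of a cell type and a change in RNA per cell cannot be told apart.

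Proteins of this family pair a pyrin domain, which binds other pyrin domains, with HIN-200 domains that bind DNA, although some members carry only one of these domains. AIM2 senses double-stranded DNA in the cytosol and recruits the adaptor ASC and caspase-1 into an inflammasome that matures interleukin-1 beta and interleukin-18. IFI204 is the mouse relative of human IFI16, a DNA sensor linked to the STING pathway, and many family genes are induced by interferons through ISREs, promoter elements bound by interferon-activated transcription factors. The family differs between mouse and human and between mouse strains, and its members arose by duplication.

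The genes lie within 682.2 kb, from 173349547 to 174031755 on chromosome 1 of GRCm38, with Aim2 at one end and Ifi205 at the other. In order, Aim2 (173349547 to 173466040), Ifi213 (173566280 to 173599348), Ifi209 (173630859 to 173647928), Ifi208 (173673628 to 173698393), Ifi207 (173723424 to 173741831), Ifi204 (173747293 to 173767069), Mndal (173857215 to 173880382), Ifi211 (173896339 to 173913087), Ifi203 (173920400 to 173942866) and Ifi205 (174011998 to 174031755) are annotated. Aim2, Ifi209 and Ifi208 are on the plus strand and the other 7 genes on the minus strand.

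Promoter sequences were available for 9 of the 10 genes, as RefSeq windows of 250 bases before to 50 bases after an annotated start site (GRCm38.p6), with 2 windows each for Ifi203 and Mndal. The core letters of an ISRE, searched as 2 copies of GAAA with any 2 bases between them on both strands, were found in windows of 7 genes, namely Ifi203, Ifi205, Ifi207, Ifi208, Ifi211, Ifi213 and Mndal. Of 32851 windows in the genome 3.44% hold these letters. Each match on the strand of its gene is printed with 12 bases on either side, its letters in capitals, since its neighbourhood shows which genes share promoter sequence. The windows of Ifi214 and Ifi206, cluster genes outside the 10, are included for comparison, and for Ifi209 the capitals are the letters that align with the match of Ifi214.
Ifi205 (chr1:174031868-174031901, minus strand): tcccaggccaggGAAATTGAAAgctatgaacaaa
Ifi211 (chr1:173913062-173913095, minus strand): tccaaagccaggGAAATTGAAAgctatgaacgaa
Ifi207 (chr1:173741829-173741862, minus strand): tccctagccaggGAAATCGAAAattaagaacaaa
Ifi203 (chr1:173942506-173942539, minus strand): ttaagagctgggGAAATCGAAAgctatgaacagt
Mndal (chr1:173880202-173880235, minus strand): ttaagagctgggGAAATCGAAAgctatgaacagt
Ifi213 (chr1:173599324-173599357, minus strand): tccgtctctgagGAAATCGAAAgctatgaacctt
Ifi208 (chr1:173673595-173673628, plus strand): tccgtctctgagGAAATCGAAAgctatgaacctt
Ifi206 (chr1:173491337-173491370, minus strand): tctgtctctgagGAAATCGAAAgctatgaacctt
Ifi214 (chr1:173536015-173536048, minus strand): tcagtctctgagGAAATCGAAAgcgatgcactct
Ifi209 (chr1:173630768-173630801, plus strand): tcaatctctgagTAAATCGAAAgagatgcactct

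The stretches fall into families. Ifi203 and Mndal had the same 34 bases, and over the windows that hold them 282 of 289 aligned bases were identical (97.6%). Ifi213 and Ifi208 also had the same 34 bases, with 98.9% identity over the aligned parts of their windows. Ifi205 and Ifi211 shared 94.0% of 201 aligned bases, and theirs were the member windows with T at the 6th letter of the core, a form held by 0.791% of all windows and by construction a part of the ISRE search. The Ifi209 window was 96.0% identical to that of Ifi214, yet its core differed by G1T, counted from the first letter of the Ifi214 match, and so did not match the search. Matches began at -35 to -73 bases from the window's start site in Ifi203, Ifi207, Ifi208, Ifi211, Ifi213 and Mndal, and at -134 in Ifi205. The Ifi205 window held another match on the opposite strand at 23 bases after the start. The printed matches of Ifi203, Ifi211, Ifi213 and Mndal lie inside the annotated spans of these genes, so their distances hold for an inner start site. The other Mndal window held a match on the opposite strand at -54 bases.

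Whole windows are given for the gene with the largest change, for Mndal, and for the pair of members whose windows hold no ISRE letters. ISRE matches on either strand are in capitals.
Ifi205 (chr1:174031706-174032005, minus strand): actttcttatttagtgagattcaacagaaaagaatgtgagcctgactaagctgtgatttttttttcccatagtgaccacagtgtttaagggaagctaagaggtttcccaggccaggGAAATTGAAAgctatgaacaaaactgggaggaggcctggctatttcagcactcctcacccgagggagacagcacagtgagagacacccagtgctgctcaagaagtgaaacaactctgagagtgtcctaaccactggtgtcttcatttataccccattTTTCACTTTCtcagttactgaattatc
Mndal (chr1:173880138-173880437, minus strand): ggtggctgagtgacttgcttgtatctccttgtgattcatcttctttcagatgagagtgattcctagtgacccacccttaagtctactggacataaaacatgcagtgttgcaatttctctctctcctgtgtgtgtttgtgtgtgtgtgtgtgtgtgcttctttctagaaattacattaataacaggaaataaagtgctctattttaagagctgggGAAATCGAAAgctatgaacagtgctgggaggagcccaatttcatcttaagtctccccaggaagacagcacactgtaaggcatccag
Ifi209 (chr1:173630609-173630908, plus strand): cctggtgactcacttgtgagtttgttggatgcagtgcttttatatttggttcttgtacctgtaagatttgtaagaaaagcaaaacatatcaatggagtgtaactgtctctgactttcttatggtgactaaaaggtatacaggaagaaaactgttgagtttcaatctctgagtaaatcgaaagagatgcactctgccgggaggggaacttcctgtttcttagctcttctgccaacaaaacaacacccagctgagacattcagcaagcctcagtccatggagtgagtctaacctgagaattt
Aim2 (chr1:173420354-173420653, plus strand): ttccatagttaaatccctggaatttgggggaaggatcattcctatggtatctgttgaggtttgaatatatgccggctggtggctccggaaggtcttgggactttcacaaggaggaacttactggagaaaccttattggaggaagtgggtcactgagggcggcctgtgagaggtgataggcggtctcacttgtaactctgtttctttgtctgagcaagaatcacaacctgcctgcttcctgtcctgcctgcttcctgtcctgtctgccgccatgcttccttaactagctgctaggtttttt

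Other letters were less common in the family. The GAS core, TTC and GAA with any 3 bases between them, was in no member window (8.30% of all windows), nor were the PU.1-IRF composite, GGAA and GAAA with any 2 bases between them (2.72%), and the NF-kappaB type, GGGA and TTTCC with any 1 base between them (0.411%). The STAT6 type, TTC and GAA with any 4 bases between them, was in windows of 5 members, Ifi203, Ifi205, Ifi208, Ifi211 and Ifi213 (6.95% of all windows). A match describes letters only and was not tested as a binding site.

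**Figure D1:**
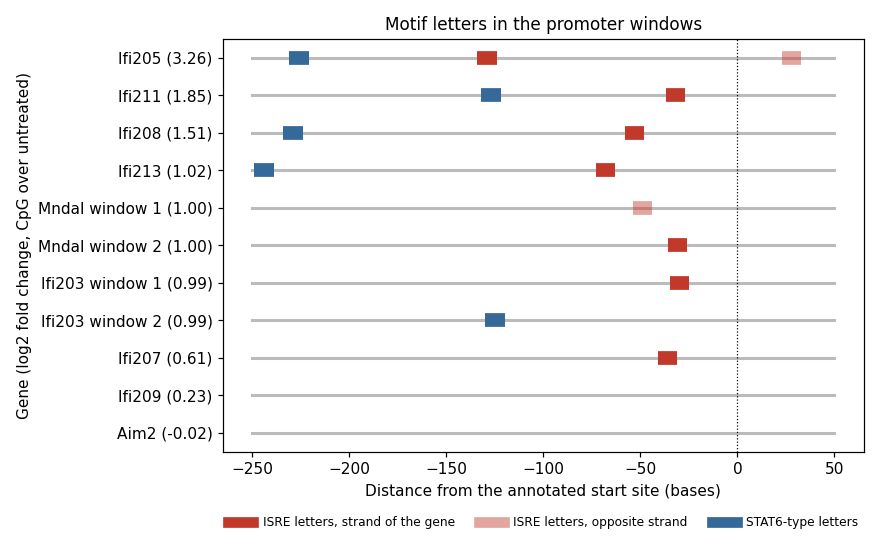
Positions of ISRE and STAT6-type letters in the 11 promoter windows of 9 members, as distance in bases from the annotated start site, with the fitted log2 fold change of CpG-pretreated over untreated in brackets. Red blocks are ISRE letters (pale on the opposite strand) and blue blocks STAT6-type letters. The windows of Ifi209 and Aim2, with log2 fold changes of 0.23 and -0.02, hold neither.

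In 8 of the 9 Ifi200 genes the CpG-pretreated libraries lay above the untreated ones, while Aim2 averaged 156 ± 9.68 CPM in CpG-pretreated and 158 ± 8.77 CPM in untreated cells (SD, n = 3 each). Ifi203, Mndal, Ifi213 and Ifi211 rose, the first 3 by 1.99- to 2.02-fold and Ifi211 3.61-fold, and they were the 4 members of 10 called by edgeR at an adjusted p under 0.05. Of all genes tested 0.974% were called, 0.474% as higher. The median log2 fold change was 0.997 over the 10 members and -0.01 over all genes tested. The 8 members without overlap, all but Ifi204 and Aim2, stand beside 9.20% of all genes tested in which each CpG-pretreated library lay above each untreated one. The family was selected on its measured differences in this same contrast, so these values describe where its members stand in the table and are no independent evidence.

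With the sample number as a block, 6 members were called, the same 4 with Ifi207 and Ifi208, against 8.52% of all genes (4.73% as higher). The 4 calls depended on the libraries kept. Without CpG-pretreated library 2 or 3, or without untreated library 3 or 4, edgeR called 0 of the 10 (7 at an unadjusted p under 0.05 in each, no other tool having been run on these subsets). Without untreated library 2 it called Ifi203 and Mndal, and without CpG-pretreated library 4 it called 6, the 4 with Ifi205 and Ifi207. Over the whole table edgeR called 0 genes without CpG-pretreated library 2 or 3. It called 2 without untreated library 3, 1 without untreated library 4, 34 without untreated library 2 and 386 without CpG-pretreated library 4. At an unadjusted p under 0.05 were 1065 of 11751 and 1107 of 11752 genes without CpG-pretreated library 2 or 3. Without untreated library 3 or 4 they were 1130 of 11805 and 1176 of 11824.

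**Figure D2:**
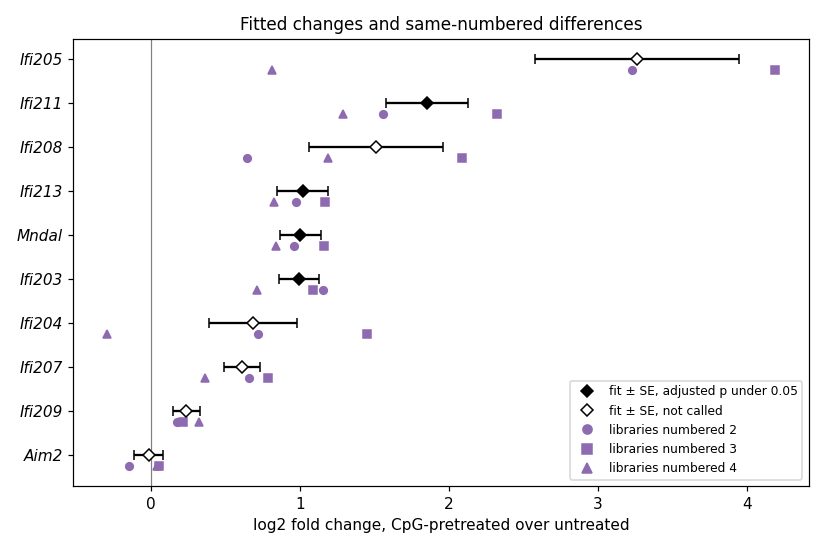
Fitted log2 fold change of CpG-pretreated over untreated for each gene with its standard error (diamonds, filled where the edgeR adjusted p was under 0.05), and the difference in log2 CPM between libraries of the same number (purple symbols). Ifi205 has the widest span, from 0.81 in the libraries numbered 4 to 4.19 in those numbered 3, and the fitted value of Aim2 is -0.02.

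Levels per length set the genes apart in untreated cells. On the scale of CPM per kb of gene length, the untreated cells held Aim2 at 62.1 ± 3.45, Ifi209 at 53.7 ± 3.15, Mndal at 46.9 ± 3.51, Ifi207 at 31.7 ± 1.68 and Ifi203 at 25.8 ± 2.02 (SD, n = 3). The other 5 were far lower, with Ifi204 at 5.54 ± 1.26, Ifi213 at 3.80 ± 0.344, Ifi205 at 2.78 ± 0.337, Ifi211 at 1.15 ± 0.219 and Ifi208 at 0.952 ± 0.260. Neighbours in this order did not overlap between libraries, except Ifi204 with Ifi213 and Ifi211 with Ifi208. In CpG-pretreated cells Mndal stood first, at 93.8 ± 15.7 CPM per kb, above Ifi209 at 63.2 ± 0.582 and Aim2 at 61.3 ± 3.81, whose libraries overlapped. Ifi205 stood in the sixth place, at 26.8 ± 20.6, where it overlapped the genes on either side.

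**Figure D3:**
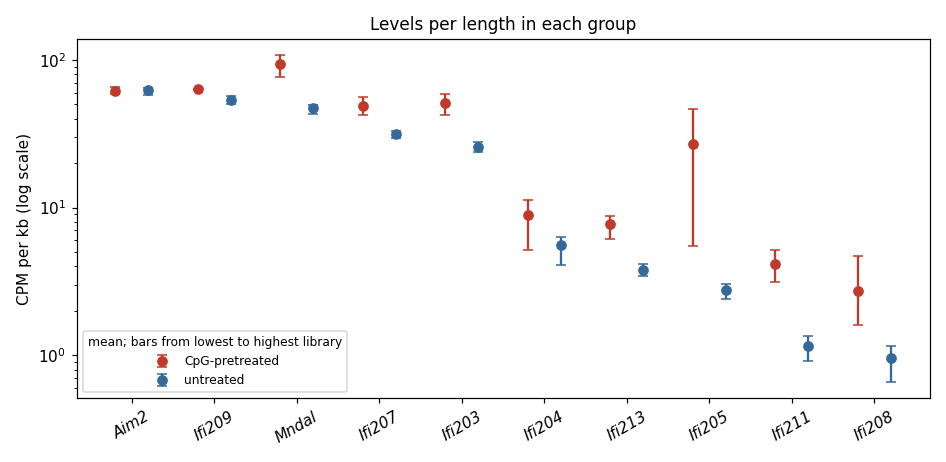
Level of each gene in CPM per kb on a log axis, as the mean of 3 CpG-pretreated (red) and 3 untreated (blue) libraries with bars from the lowest to the highest library, ordered by the untreated mean. In untreated cells 5 genes stand between 25.8 and 62.1 and the other 5 between 0.952 and 5.54 CPM per kb.

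Aim2, the cytosolic DNA sensor of the inflammasome, had 148.8, 167 and 152 CPM in CpG-pretreated samples 2, 3 and 4, compared with 165, 161 and 148.0 CPM in untreated libraries 2, 3 and 4. The groups overlapped. Its log2 fold change was -0.02 (SE 0.10, edgeR adjusted p = 0.973), and over 14 alternative settings it stayed between -0.06 and 0.03. A p that misses the threshold does not show that the levels were equal.

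Ifi204, the relative of human IFI16, had 23.4, 26.0 and 11.8 CPM in CpG-pretreated samples 2, 3 and 4, compared with 14.1, 9.38 and 14.6 CPM in untreated ones. CpG-pretreated library 4 lay below 2 of the untreated libraries, and the groups overlapped. The log2 fold change was 0.68 (SE 0.30, edgeR adjusted p = 0.383), and no setting called it.

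Ifi203 and Mndal, a pair of similar genes of the HIN-200 type, changed alike. Ifi203 had 199.7, 223 and 162 CPM in CpG-pretreated samples 2, 3 and 4, compared with 89.6, 105 and 99.0 CPM in untreated ones, a change of 0.99 in log2 units (SE 0.13, edgeR adjusted p = 0.0379). Mndal, named for its likeness to the human myeloid nuclear differentiation antigen MNDA, had 185, 206 and 147 CPM against 94.9, 91.6 and 82.0 CPM, a change of 1.0 in log2 units (SE 0.14, adjusted p = 0.0379). Each CpG-pretreated library of both genes was well above each untreated one, and library 4 was the lowest of its group. The ratio of Mndal to Ifi203 in CPM was 0.926, 0.923 and 0.906 in CpG-pretreated libraries and 1.06, 0.875 and 0.829 in untreated libraries, so that it stayed within the untreated range. These are the genes whose windows were 97.6% identical.

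Ifi213 and Ifi208, also named Pydc4 and Pydc3 for their pyrin domain, were much less abundant. Ifi213 had 22.0, 23.3 and 16.5 CPM in CpG-pretreated samples 2, 3 and 4, compared with 11.1, 10.2 and 9.22 CPM in untreated ones, and it rose with a change of 1.02 in log2 units (SE 0.17, edgeR adjusted p = 0.0434). Among the 10 members its profile over the 6 libraries was the one nearest to that of Mndal. The root mean square difference in centred log2 CPM was 0.03, against 0.11 between Ifi203 and Mndal. Ifi208 had 5.52, 14.1 and 4.79 CPM against 3.44, 3.13 and 1.97 CPM, so that library 3 alone stood far above the rest. Its log2 fold change of 1.51 (SE 0.45, adjusted p = 0.178) was called with the sample number as a block (1.44, adjusted p = 0.00577). Without CpG-pretreated library 3 it was 0.86 (adjusted p = 0.378). The ratio of Ifi213 to Ifi208 was 3.98, 1.66 and 3.45 in CpG-pretreated libraries 2, 3 and 4, against 3.21, 3.28 and 4.69 in untreated ones. CpG-pretreated library 3 thus stood apart for Ifi208, although the windows of these genes were 98.9% identical over their aligned parts.

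Ifi205 gave the largest difference of the family and the most uneven one. It had 45.9, 75.1 and 8.82 CPM in CpG-pretreated samples 2, 3 and 4, compared with 4.67, 3.88 and 4.92 CPM in untreated ones. Library 4 was above the untreated libraries by much less than libraries 2 and 3 were. The log2 fold change was 3.26 (SE 0.68, edgeR adjusted p = 0.0733, and 0.225 in the blocked fit), and without CpG-pretreated library 4 it was 3.74 (adjusted p = 0.000967). Without CpG-pretreated library 3 it was 2.62 (adjusted p = 0.203), and leaving out any one of the other 4 libraries gave adjusted p-values of 0.23 to 0.353. The same library was the lowest of the CpG-pretreated group for the summed erythroid markers, at 219.5 CPM against 1063 and 1004 CPM in libraries 2 and 3, and the part of these cells in the Ifi205 values was not tested. Ifi205 is also known as a transcript of cDC1, the dendritic cells that carry CD8 in spleen. Of 9 cDC1 markers 0 were called by edgeR (0.974% of all genes), and 3 had an unadjusted edgeR p under 0.05 (12.8%). DESeq2 called 2 (3.67%), limma-voom 0 (0.353%) and the blocked fit 3 (8.52%). None of the markers was at 0, and their sums were 1947 to 2664 CPM in CpG-pretreated and 1705 to 2841 CPM in untreated libraries. Wdfy4 makes up most of these sums, and without it the other 8 came to 158, 183 and 131 CPM in CpG-pretreated and 166, 152 and 134 CPM in untreated libraries 2, 3 and 4, which overlap. The members of the list differed in direction. The cDC1 receptor gene Xcr1 was at 9.48 CPM in CpG-pretreated and 3.92 CPM in untreated cells (log2 fold change 1.27, adjusted p = 0.185, and 0.00474 in the blocked fit), and Itgae at 2.28 and Tlr3 at 0.80 were called in the blocked fit as well (adjusted p = 0.0213 and 0.00286). Cd36 had 0.57, Cd8a 0.53, Clec9a 0.01, Wdfy4 -0.05, Batf3 -0.27 and Cadm1 -0.40, with edgeR adjusted p-values of 0.509 to 0.991. In all, 6 of the 9 values were above 0, and the list median was 0.53, against -0.01 over all genes tested. The part of such cells was not tested either.

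Ifi211, an Ifi205-like gene once called Mnda, had 6.99, 8.497 and 5.16 CPM in CpG-pretreated samples 2, 3 and 4, compared with 2.21, 1.5 and 1.97 CPM in untreated ones. The groups did not overlap, and the log2 fold change was 1.85 (SE 0.27, edgeR adjusted p = 0.0388). Ifi205 exceeded Ifi211 by ratios of 6.56, 8.84 and 1.71 in the CpG-pretreated libraries and of 2.11, 2.58 and 2.50 in the untreated ones, so the ratio was above the untreated range in libraries 2 and 3 and below it in library 4. These were the genes with T at the 6th letter of the core.

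Ifi207 and Ifi209 were abundant and differed least among the members with separated groups. Ifi207 had 164, 194 and 148.2 CPM in CpG-pretreated samples 2, 3 and 4, compared with 104, 112 and 115 CPM in untreated ones, a change of 0.61 in log2 units (SE 0.12, edgeR adjusted p = 0.0608, and 0.000794 in the blocked fit). Ifi209, also called Pyhin1, had 223, 219.8 and 219.9 CPM against 198, 189 and 176 CPM. Its CpG-pretreated libraries lay close together and just above the untreated ones, with a change of 0.23 in log2 units (SE 0.09, adjusted p = 0.311, and 0.0716 in the blocked fit).

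**Figure D4:**
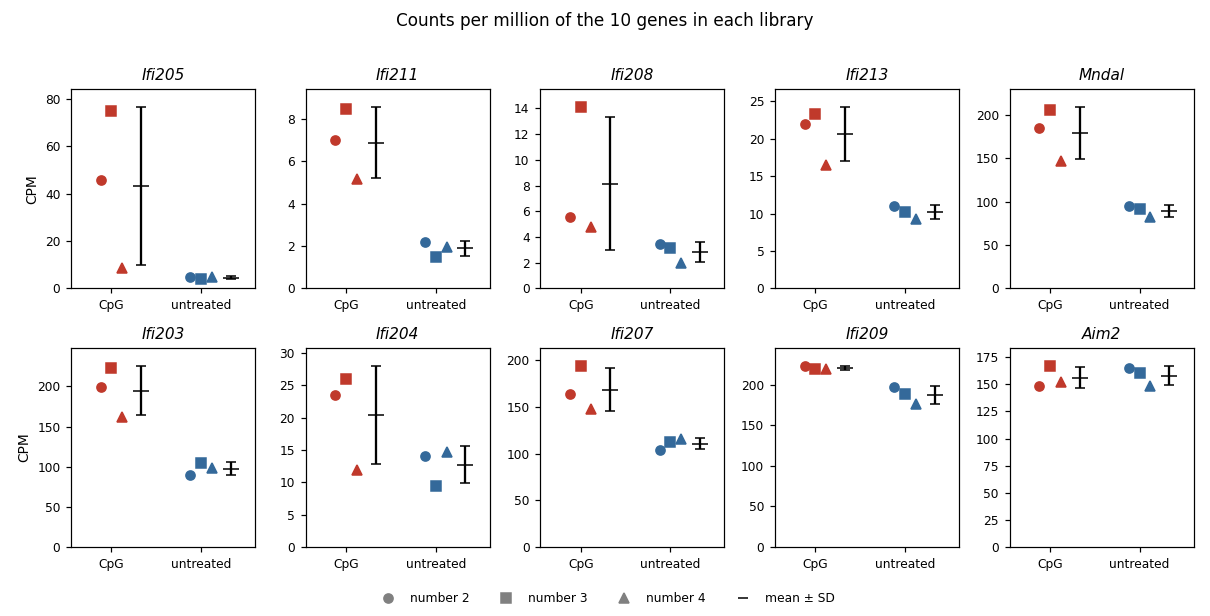
CPM of each gene in the 3 CpG-pretreated (red, left) and 3 untreated (blue, right) libraries, with symbols for the sample number and mean ± SD in black, each panel on its own axis from 0. For 8 of the 10 genes CpG-pretreated library 4 is the lowest of its group, and for Ifi204 and Aim2 the groups overlap.

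CpG-pretreated library 4 was the lowest of its group for 8 of the 10 genes, the exceptions being Ifi209 and Aim2. Between libraries of the same number, the median difference of the 10 genes in log2 CPM was 0.84 for number 2, 1.17 for number 3 and 0.76 for number 4. Summed over the 9 genes other than Aim2, CPM came to 876, 989 and 724 in CpG-pretreated libraries 2, 3 and 4, against 522, 526 and 505 in untreated ones. Ifi209 made up 25.5%, 22.2% and 30.4% of that sum in CpG-pretreated and 37.9%, 36.0% and 34.9% in untreated libraries, while Ifi205 made up 5.24%, 7.59% and 1.22%, against 0.895%, 0.736% and 0.974%.

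The promoter letters and the changes can be set side by side. The 7 members whose windows hold ISRE letters had log2 fold changes from 0.61 (Ifi207) to 3.26 (Ifi205). The members whose windows hold none had 0.23 (Ifi209) and -0.02 (Aim2). The Aim2 window surrounds a start site at 173420604, while the gene is annotated from 173349547, and the sequence before that base was not searched. With 9 genes that share promoter sequence, the letters were not tested against the changes. Among all tested genes with a RefSeq window, 10 of 367 with ISRE letters were called higher (2.72%) and 3 lower (0.817%), against 33 higher (0.378%) and 40 lower (0.458%) of 8733 without them, and the 10 include the 4 called members. With the sample number as a block, 35 of the genes with the letters (9.54%) and 382 of those without (4.37%) were called higher. The 35 include the 6 members called in that fit. The median log2 fold change was 0.04 with the letters and -0.01 without.

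Similar copies limit how reads can be assigned. Of the 50-base stretches in GENCODE M21 transcripts of each gene, 72.8% of those of Ifi211 also occurred in transcripts of another gene, 44.7% in Ifi205, and with 100-base stretches these shares were 56.9% and 37.2%. For Ifi209 33.7% of 50-base stretches were shared, 33.4% with Ifi214, and for Ifi205 18.6%. Ifi203, Ifi204, Ifi207, Ifi208, Ifi213 and Mndal shared 7.3% to 20.8%, and Aim2 0.6%. The read length and the handling of reads with more than 1 matching gene were not given in the sources used here, so the split of counts between Ifi211 and Ifi205, and between Ifi209 and Ifi214, is uncertain.

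Of 9 other genes annotated within the interval, 3 had a row in the count table. Ifi214 had 9, 11 and 17 counts in CpG-pretreated libraries 2, 3 and 4, against 8, 6 and 8 in untreated ones, too few to be tested. The pseudogene Ifi203-ps had 0 to 3 counts in each library, and Ifi202b was at 0 in all 6, and a floor of 3 counts per library allows up to 0.38 CPM (counting error only). Beyond Aim2, the adhesion molecule gene Cadm3, whose annotation overlaps that of Aim2, had a change of 0.26 in log2 units (edgeR adjusted p = 0.375), the chemokine-binding receptor gene Ackr1 -0.16 (0.735) and the phosphatase gene Dusp23 -0.37 (0.657). Beyond Ifi205, the olfactory receptor gene Olfr433 had 2.58, 3.68 and 2.14 CPM against 0.737, 1.63 and 0.860 CPM (1.37, adjusted p = 0.145, and 0.0215 in the blocked fit). The fumarase gene Fh1, farther along, had 0.15 (0.795).

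Partners of AIM2 did not pass the test. For the counts over the lists that follow, 12.8% of all genes tested had an unadjusted p under 0.05, and DESeq2 called 3.67% and limma-voom 0.353% of them. The edgeR fit called 0.474% of all genes as higher and 0.500% as lower, and with the block 4.73% as higher and 3.78% as lower. Of 8 genes of the inflammasome list edgeR called 0 (4 at an unadjusted p under 0.05, 2 by DESeq2, 0 by limma-voom), and with the block 1 was higher and 2 were lower. The list median was 0.09. Il1b, the most abundant and the precursor gene of interleukin-1 beta, had 124 ± 13.9 CPM in CpG-pretreated and 204 ± 50.8 CPM in untreated cells (SD, n = 3 each), a change of -0.72 in log2 units (SE 0.18, edgeR adjusted p = 0.114, and 0.000343 in the blocked fit). Gsdmd, which encodes the pore-forming gasdermin D, had 0.05 (adjusted p = 0.940). With the block the others called were Il18 (-0.90, adjusted p = 0.000843) and Casp8, the caspase-8 gene (0.29, adjusted p = 0.0322).

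The DNA sensing and STING list gave 0 of 18 members called by edgeR (5 at an unadjusted p under 0.05, 1 by DESeq2, 0 by limma-voom), and 3 were higher with the block. Its median log2 fold change was 0.20, and 15 of 18 values were above 0. Samhd1, a nucleotide hydrolase that limits DNA substrates, was the most abundant, at 1660 ± 216 CPM in CpG-pretreated and 1340 ± 147 CPM in untreated cells (0.31, edgeR adjusted p = 0.351, and 0.0394 in the blocked fit). Unc93b1, the chaperone of endosomal Toll-like receptors, had -0.04 (adjusted p = 0.940). The others called with the block were the exonuclease gene Trex1 (0.29, adjusted p = 0.0342) and the RNase H2 subunit gene Rnaseh2b (0.32, adjusted p = 0.0402).

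In the interferon signalling list of 14 genes the median log2 fold change was 0.10, and 11 of 14 values were above 0. Jak2, the most abundant and a kinase of cytokine receptors, was at 0.00 (edgeR adjusted p = 0.996). The transcription factor genes Irf1, Irf8 and Stat2 had edgeR adjusted p-values of 0.175, 0.179 and 0.360 without the block and of 0.00845, 0.0185 and 0.0447 with it, where all 3 were called as higher.

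Of 20 other interferon-stimulated genes 19 were matched and tested. Of these 2 rose (0.474% of all genes) and none fell (0.500%), and with the block 7 were called, all higher (4.73%). At an unadjusted edgeR p under 0.05 were 10 of them, and DESeq2 called 5 and limma-voom 2. Ifi44 rose by 3.02 on the log2 scale (SE 0.41, edgeR adjusted p = 0.0379) and Oasl1, an OAS-like gene, by 1.04 (SE 0.15, adjusted p = 0.0388). The most abundant members, the RNA sensor gene Ifih1 and Oasl2, had 0.24 (adjusted p = 0.433) and 0.97 (adjusted p = 0.0601, and 0.000591 in the blocked fit). The median of the list was 0.37 and 18 of 19 values were above 0.

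The profiles most like that of Ifi205 over the 6 libraries, among 8920 genes with a mean log2 CPM of at least 3, were those of Spon1, Htr7, Car2, Sptb (the erythroid beta spectrin) and Slfn1. Their root mean square differences from Ifi205 in centred log2 CPM were 0.53, 0.54, 0.54, 0.58 and 0.61, and their log2 fold changes lay between 2.23 and 2.63. For Ifi209, the most abundant member by CPM, the nearest were Tmem234, Ccnh, H13, Gle1 and Nap1l1, at 0.03 to 0.04.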

How the data were processed

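RNA of CD8-negative dendritic cells of mouse spleen, sorted by flow cytometry, was sequenced in 6 libraries. The authors deposited raw read counts for each Entrez gene ID, with its length. The submitters' processing notes name CASAVA, featureCounts and mm10; versions, aligner, strand setting and treatment of multiply matching reads were not given in the sources used here, nor was the read length. The counts of each sample equalled those of the table of all samples.

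These counts entered edgeR 4.0.16 under R 4.3.3. The filterByExpr function (minimum count 10, minimum total 15) left 11602 genes. After TMM normalization, the two-sided quasi-likelihood F test with robust dispersions compared CpG-pretreated with untreated, with Benjamini-Hochberg adjustment over these genes and a threshold of 0.05 for a call. Each standard error is the log2 fold change divided by the root of its F statistic. CPM used TMM-normalized library sizes, and log2 CPM a prior count of 2. The fit was also run on simulated counts with known changes, a common dispersion for all genes and no pairing. That run does not cover uneven libraries such as those of Ifi205. Some genes covered by the naming rule are not reported here. Symbols came from RefSeq GRCm38.p6, which matched 25275 IDs and left 1904 unmatched (0.327% of counts). Promoter windows were aligned with Biopython 1.88.

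Numbers 2, 3 and 4 recur in both groups, and the labels do not say what they mark. Deviations from the group mean in log2 CPM correlated across genes at 0.48, 0.25 and 0.31 between libraries of the same number, each over 0.1. Between libraries of different numbers the values were -0.39 to 0.07. Samples of 1 number were therefore treated as pairs in the blocked fit only. The principal fit and the other alternatives, including those with 1 library left out, ignored the pairing.

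The members and gene lists were chosen with earlier results of these data known. The naming rule took all 10 members, of each list the called genes (up to 6) and the 2 most abundant, the 3 tested genes nearest to the cluster on each side, and the 5 nearest profiles. Alternatives were RLE, upper quartile and library size scaling, 2 other filters, DESeq2 1.42.0, limma-voom (limma 3.58.1), a replicate block and leaving out each library.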

Additional observations from a re-analysis of the deposited data

How the results depend on the processing

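Over the 14 alternatives, the log2 fold changes of Ifi203, Mndal, Ifi213 and Ifi211 kept their sign, within 0.90 to 1.11, 0.90 to 1.12, 0.93 to 1.15 and 1.68 to 2.02. Of 140 values, 10 genes under 14 settings, 111 stayed on the same side of the threshold, 21 lost a call and 8 gained one. The number of members called, 4, was 7 with DESeq2 (Ifi205, Ifi207 and Ifi208 added), 2 with limma-voom (Ifi203 and Mndal), 6 with the replicate block, and 0 to 6 when 1 library was left out. It was 3 with upper quartile scaling, where Ifi213 had an adjusted p of 0.0516. The number of genes called in the whole table, 113, was 189 with no filter on low counts, 426 with DESeq2, 41 with limma-voom, 988 with the replicate block, and 0 to 386 when 1 library was left out (0 without CpG-pretreated library 2 or 3, where edgeR gave 1065 and 1107 genes with unadjusted p under 0.05). With the replicate block 8.52% of all genes were called. The counts in that fit were 3 in the DNA sensing list, 3 in the inflammasome list, 3 in the interferon signalling list and 7 among other interferon-stimulated genes. The cause was not tested. Scaling moved the median of all genes by at most 0.04 on the log2 scale. At this depth Ifi208 and Ifi211 rest on 12 to 111 counts per library.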
